A study of Mus musculus with 4 samples.

Results

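The transcripts described here are those of 6 genes that oxidise or remove methylated cytosine in DNA or supply the cosubstrate for it. They were taken by symbol from the 16673 genes measured: Tet1, Tet2 and Tet3, the glycosylase gene Tdg, and the isocitrate dehydrogenase genes Idh1 and Idh2. RNA came from Lin– bone marrow cells, the cells left after those with markers of mature blood lineages are removed, of 2-month-old mice. The control group was 2 Tet3F/F mice, which carry floxed Tet3 alleles and no Cre. The other group, labelled cKO, was 2 Tie2+/cre; Tet3F/F mice, which carry the same alleles and Cre driven by Tie2, a gene of endothelial and early blood cells. The comparison asks how transcripts differ when Tet3 is targeted in these cells.

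TET enzymes are dioxygenases that use iron and 2-oxoglutarate to turn 5-methylcytosine into 5-hydroxymethylcytosine and then into formyl and carboxyl forms. TDG cuts out the formyl and carboxyl bases, and base excision repair puts an unmodified cytosine in their place. IDH1 in the cytosol and IDH2 in mitochondria make 2-oxoglutarate from isocitrate, and TET2 and both IDH genes are known for mutations in blood cancers.

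Levels are normalized counts, that is the reads of a gene scaled by the library's size factor. The libraries held 39199593 and 46673855 reads for control replicates 1 and 2, and 28845037 and 30020188 for cKO replicates 1 and 2. Some facts of the whole series touch each comparison. Xist, the RNA of the inactive X chromosome, had 6 and 12 reads in the controls and 74905 and 42609 in the libraries labelled cKO, while the Y genes Ddx3y, Eif2s3y, Kdm5d and Uty had 0 reads in both libraries labelled cKO, so genotype and sex cannot be told apart. Control replicate 2 stood apart, with 8.16% of its reads from mitochondrially encoded genes against 0.989% to 1.26% in the others. The progenitor genes Kit and Cd34 were abundant in all 4 libraries, with both libraries labelled cKO above both controls. Of 10 progenitor markers 4 stood so, against 19.2% of all genes. The log2 fold change was above 0 for 9 of the 10 and -0.26 for Gata2. Kit had 10915 and 11537 normalized counts in the controls, and 14051 and 12478 in the libraries labelled cKO. Cd34 had 11733 and 8599, and 13170 and 13116. The 8 neutrophil granule genes summed to 172637 to 545329, mostly from Mpo (82908 to 343617), Elane and Prtn3. Ltf (33.5 to 502) and Camp (38.5 to 513) of that list were far lower. In bulk RNA, fewer cells of a type and less RNA per cell cannot be told apart.

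No member differed between the groups by the test. All 6 passed the filter on low values, and 0 of 6 were called at an adjusted p under 0.05 (limma with Benjamini-Hochberg adjustment over 16598 genes), where 0.0723% of all genes were called (0.0301% higher and 0.0422% lower in the libraries labelled cKO). Of the 6 genes, 1 (Tet1) had both libraries labelled cKO above both controls, against 38.7% of all genes whose groups did not overlap in either direction. DESeq2 and edgeR on the recovered reads also called 0 of the 6, where DESeq2 called 0.645% of all genes (0.428% higher and 0.217% lower) and edgeR 0.0723% (0.0301% higher and 0.0422% lower). The only member with an unadjusted p under 0.05 in limma was Tet1, and 6.1% of all genes had one.

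**Figure D1:**
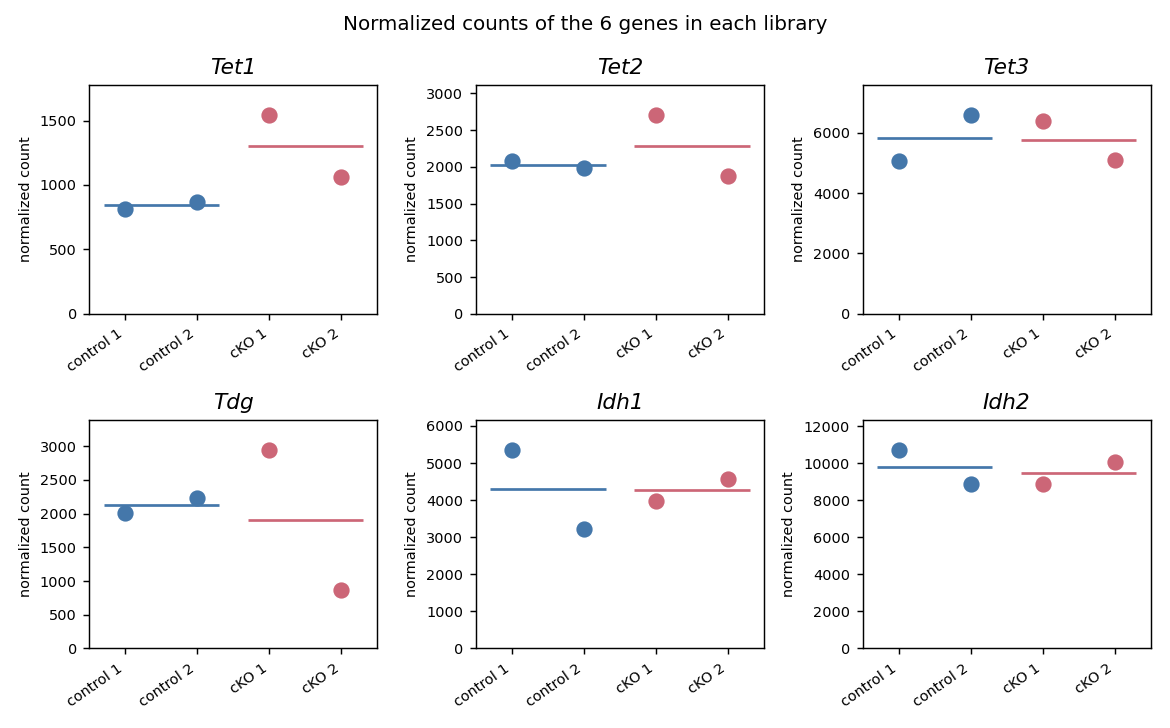
Normalized counts (vertical axes, from 0) of the 6 genes in the 4 libraries (horizontal axes); blue points are controls, red points are libraries labelled cKO, and lines are group means. Tet1 alone has both red points above both blue points, and the 2 red points of Tdg lie far apart, at 2950 and 860.5.

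Tet3, the targeted gene, encodes an enzyme that in its long form carries a CXXC domain for binding CpG-rich DNA. It had 5056 and 6593 normalized counts in control replicates 1 and 2, and 6400 and 5084 in cKO replicates 1 and 2. The higher and the lower value of each group were close to those of the other group. The difference in Tet3 was -0.02 on the log2 scale (SE 0.22), with a 95% interval from 0.693-fold to 1.41-fold. The floxed exons are not named in the labels, and a count over all exons does not separate transcripts with and without them, so it checks neither the deletion nor the labels. A further transcript, B230319C09Rik, runs on the opposite strand over 6568 bases of the Tet3 locus, and it had 18.4 to 40.9 normalized counts, small beside those of Tet3.

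Tet1 encodes the other enzyme with a CXXC domain of its own. It had 815 and 870 normalized counts in the controls, and 1544 and 1065 in the libraries labelled cKO. Both controls were close together and below both others, and cKO replicate 1 was the highest. Tet1 was 1.52-fold higher in the libraries labelled cKO (log2 fold change 0.61, SE 0.25, 95% interval 0.03 to 1.18), with an adjusted p of 0.76 by limma and Benjamini-Hochberg, so it did not pass. It was rank 812 by p-value among the 16598 genes. Over fits that each left out 1 library, the log2 fold change of Tet1 ran from 0.34 (without cKO replicate 1) to 0.87 (without cKO replicate 2).

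Markers of other cells differed in both directions beside Tet1, and none of those given here was called. The Lin– depletion removes cells with markers of mature lineages, which commonly include those of T cells, and the labels do not list the markers used. Of 10 T and NK cell markers, 8 had both libraries labelled cKO above both controls, against 19.2% of all genes. The 10 summed to 7355 to 10140 normalized counts in the controls and 12056 to 12664 in the libraries labelled cKO. Nkg7 held most of that sum in the controls (8474 and 4671). It had 4975 and 6616 in the libraries labelled cKO, with a log2 fold change of -0.13. None of the 10 was at 0 reads in any library, and Cd3e, which encodes part of the CD3 complex of T cells, had 67.4 and 177 in the controls and 460 and 292 in the libraries labelled cKO. The 6 endothelial markers summed to 4582 to 5519 in the controls and 6245 to 7460 in the libraries labelled cKO. Of these 6, 4 had both libraries labelled cKO above both controls, against 19.2% of all genes. Pecam1 held most of that sum, and Emcn had a log2 fold change of -0.18. The 10 immediate early genes summed to 13737 to 17459 and 5383 to 6326, lower in the libraries labelled cKO. The 10 erythroid markers were all below 0, with a median log2 fold change of -1.67 and overlapping groups, and summed to 27315 and 75566 in the controls and 33413 and 12892 in the libraries labelled cKO. The 7 bone and stroma markers had a median of -1.75 and summed to 20246 to 21287 and 4964 to 9512. Of these 7, 4 had both libraries labelled cKO below both controls and 1 above, against 19.5% and 19.2% of all genes. Of 10 progenitor markers, 9 were above 0 and 4 had both libraries labelled cKO above both controls, against 19.2% of all genes. The part of these cells and genes in the Tet1 value was not tested.

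Tet2 encodes an enzyme without a CXXC domain of its own. Its counts were 2086 and 1977 in the controls, and 2708 and 1870 in the libraries labelled cKO. The groups overlapped, since cKO replicate 2 was the lowest library and cKO replicate 1 the highest. The difference in Tet2 was 0.15 on the log2 scale (SE 0.23), with a 95% interval from 0.765-fold to 1.61-fold. Summed over the 3 Tet genes, the counts were 7957 and 9440 in the controls (8699 ± 1049, SD, n = 2) and 10652 and 8019 in the libraries labelled cKO (9336 ± 1862, SD, n = 2), again overlapping.

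Ratios between 2 genes of a library do not depend on its size factor, and those of Tet1 to the other Tet genes did not overlap between the groups. Tet1 took 10.2% of the reads of the 3 Tet genes in control replicate 1 (Wilson 95% interval 9.62 to 10.9) and 9.22% in control replicate 2 (8.71 to 9.75). It took 14.5% in cKO replicate 1 (13.8 to 15.2) and 13.3% in cKO replicate 2 (12.5 to 14.1). No interval of one group reached the other group, though these intervals cover counting error only and not the difference between mice. The share of Tet3 was 63.5% and 69.8% in the controls and 60.1% and 63.4% in the libraries labelled cKO. That of Tet2 was 26.2% and 20.9%, and 25.4% and 23.3%, with overlap.

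**Figure D2:**
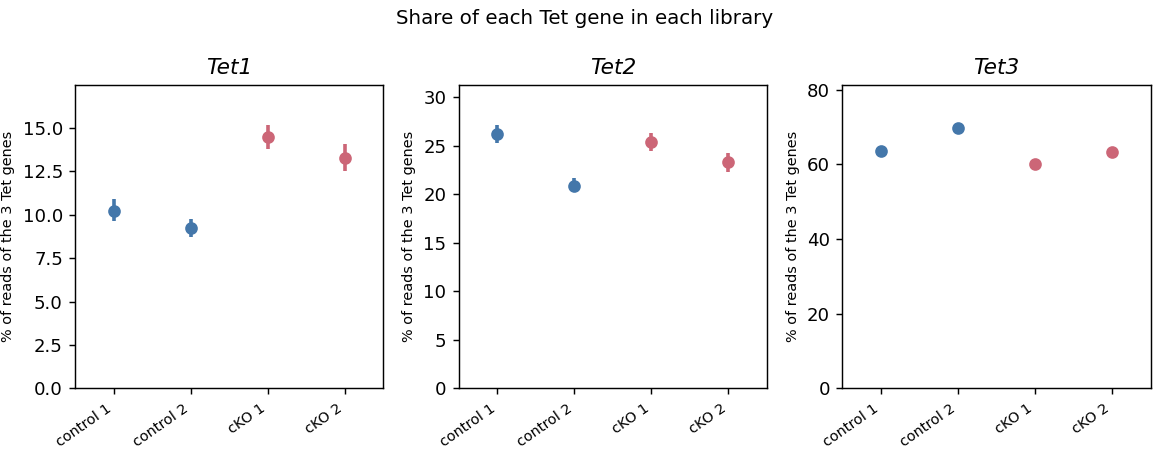
Share of the reads of the 3 Tet genes taken by each (vertical axes, percent, from 0) in the 4 libraries (horizontal axes); points are the shares, bars are Wilson 95% intervals of counting error, blue is control and red is cKO. Tet1 is at 9.22% and 10.2% in the controls and at 13.3% and 14.5% in the libraries labelled cKO, and the groups overlap for Tet2.

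The ratio of Tet1 to Tet2 normalized counts was 0.391 and 0.440 in the controls, and 0.570 and 0.569 in the libraries labelled cKO. The 2 libraries labelled cKO had nearly the same ratio although their levels of both genes differed by 1.45-fold. The log2 difference of this ratio was 0.46, with an exact permutation p of 0.333 (two-sided), the smallest that 2 against 2 libraries allow, and an adjusted p of 0.667 over the 4 ratios compared. The ratio of Tet1 to Tet3 was 0.161 and 0.132 in the controls, and 0.241 and 0.209 in the libraries labelled cKO. Its log2 difference was 0.62, with the same exact permutation p of 0.333 and adjusted p of 0.667. With 1 library left out the differences ran from 0.37 to 0.54 for Tet1 to Tet2 and from 0.48 to 0.77 for Tet1 to Tet3. Their direction could not turn in these fits, because the groups did not overlap. The ratio of Tet2 to Tet3 overlapped between groups, at 0.413, 0.300, 0.423 and 0.368 in control replicates 1 and 2 and cKO replicates 1 and 2 (log2 difference 0.17, exact permutation p = 0.667).

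Tdg encodes thymine DNA glycosylase, which removes the oxidised bases that TET enzymes make. The sequence of this gene bears on its counts, because the table also lists Tdg-ps2, a processed copy of Tdg without introns (Gm9855 in GENCODE M21). Both lie on chromosome 10. A protein-coding Tdg transcript of 2959 bases was aligned with the annotated copy of 1194 bases (GENCODE M21, build GRCm38). They matched at 99.2% of 1194 aligned bases, with 9 substitutions and no gap, all 9 within the coding sequence. The longest stretch without a difference was 756 bases, longer than the 150-base reads. The aligned part spans bases 162 to 1355 of the Tdg transcript, and the rest of the transcript is not in this annotated copy. The 60-base stretch of the coding sequence with the most differences is shown, because such differences separate reads of the gene from those of its copy.
Tdg: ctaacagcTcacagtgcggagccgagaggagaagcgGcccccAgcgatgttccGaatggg
Tdg-ps2: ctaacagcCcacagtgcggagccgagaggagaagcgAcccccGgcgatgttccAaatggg
These are bases 1209 to 1268 of the Tdg transcript and 1048 to 1107 of the copy, read 5′ to 3′, and capitals mark the 4 bases that differ. They are T1217C, G1245A, A1251G and G1262A, with the Tdg base first and positions counted from 1 at the 5′ end of the Tdg transcript. The other 5 substitutions are A259C, A1016G, G1038A, G1040C and T1154C.

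The counts of Tdg were 2011 and 2238 in the controls, and 2950 and 860.5 in the libraries labelled cKO. The highest and the lowest value of the 4 were thus in the same group. Between the 2 libraries labelled cKO Tdg differed by 3.43-fold (exact 95% interval of counting error 3.16 to 3.72), and 0.609% of the 11656 genes with a mean of at least 100 differed by as much or more between them. The controls differed by 1.11-fold. The fold change of Tdg between the groups was -0.41 on the log2 scale (SE 0.50, 95% interval -1.57 to 0.75), the widest interval of the 6 genes. It was -1.30 without cKO replicate 1 and 0.48 without cKO replicate 2, so its direction rests on single libraries. On the recovered reads edgeR gave -0.15 and DESeq2 -0.16 for Tdg alone.

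The copy Tdg-ps2 ran opposite to Tdg in those libraries. It had 477 and 359 reads in control replicates 1 and 2, 3 reads in cKO replicate 1 and 687 reads in cKO replicate 2. Tdg-ps2 thus took 17.97% (Wilson 95% interval 16.6 to 19.5) and 11.34% (10.3 to 12.5) of the reads of both genes in the controls. It took 0.119% (0.0403 to 0.348) in cKO replicate 1 and 47.8% (45.3 to 50.4) in cKO replicate 2. The library with the fewest reads on Tdg had the most on the copy, and the library with the most reads on Tdg had nearly none on the copy. In the libraries labelled cKO the copy differed by 225-fold (exact 95% interval 76.8 to 1100).

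**Figure D3:**
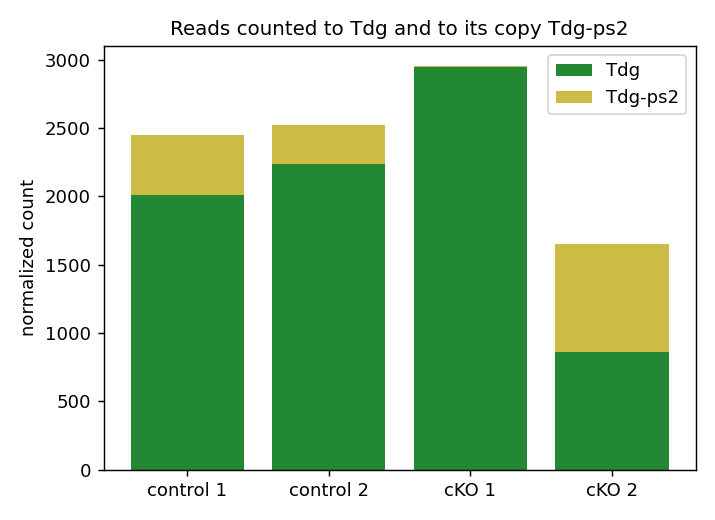
Normalized counts (vertical axis, from 0) of Tdg in green and of its processed copy Tdg-ps2 in yellow, stacked, in each library (horizontal axis). The copy is at 3.502 in cKO replicate 1 and at 789 in cKO replicate 2, and the stacked total runs from 1650 to 2953.

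Reads of both genes together were 2451 and 2524 normalized counts in the controls, and 2953 and 1650 in the libraries labelled cKO. The sum still differed between the libraries labelled cKO, but less than Tdg alone. In limma the log2 fold change was -0.17 for the sum and -0.41 for Tdg alone, a comparison chosen after the counts of the copy were seen. edgeR and DESeq2 fit counts and not mean log2 values, and gave -0.15 and -0.16 for Tdg without the copy. A value of that size was thus also reached without adding the copy. The sources used here do not say how reads that match both were placed, so the level of Tdg is uncertain in every library. None of the other 5 genes shared a 50-base stretch with another member or with these copies, while 25.4% of those of the longest protein-coding Tdg transcript were in the copy. An annotated copy on another chromosome, Tdg-ps, held 47.4% of them, and its counts are not analysed here.

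Idh1, the cytosolic enzyme, had 5365 and 3225 normalized counts in the controls, and 3967 and 4562 in the libraries labelled cKO. The 2 controls lay outside the range of the other group on both sides, with control replicate 2 the lowest. The log2 fold change of Idh1 was 0.03 (SE 0.26), with a 95% interval from 0.668-fold to 1.57-fold, while its mean was 4295 ± 1513 (SD, n = 2) in the controls and 4264 ± 421 (SD, n = 2) in the libraries labelled cKO. The log2 value is above 0 and the difference of means below it, so no direction can be given. Without control replicate 2 the value was -0.33, and without control replicate 1 it was 0.40.

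Idh2, the mitochondrial enzyme, had 10750 and 8885 normalized counts in the controls, and 8862 and 10083 in the libraries labelled cKO. The groups covered nearly the same range. Its log2 fold change was -0.05 (SE 0.20), with a 95% interval from -0.51 to 0.42 on that scale, the narrowest of the 6 genes. The ratio of Idh1 to Idh2 was 0.499 and 0.363 in the controls, and 0.448 and 0.452 in the libraries labelled cKO. The log2 difference of that ratio was 0.08, with an exact permutation p of 1 (two-sided).

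**Figure D4:**
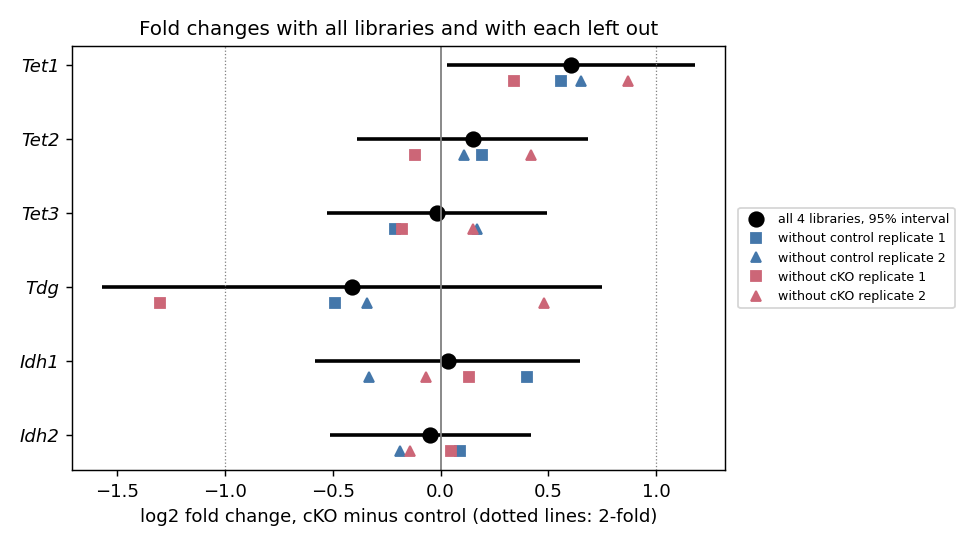
Log2 fold changes, cKO minus control (horizontal axis), of the 6 genes (vertical axis); black points and bars are the values with all 4 libraries and their 95% intervals, and coloured marks below them are the values with 1 library left out. The marks of Tdg run from -1.30 to 0.48, and those of Tet1, whose groups do not overlap, from 0.34 to 0.87.

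For 4 of the 6 genes, Tet2, Tet3, Idh1 and Idh2, the 95% interval lay within 2-fold in both directions, as it did for 48.6% of all genes. For Tet1 it reached 2.27-fold higher and for Tdg 0.336-fold, so a 2-fold difference lies within the intervals of both genes. Single libraries turned the sign of 5 of the 6 values. Without cKO replicate 1 the log2 fold change of Tet2 was -0.12 and that of Idh2 0.05. Without control replicate 2 that of Tet3 was 0.17. Counting error was small beside these shifts, since each gene had at least 749 reads in each library.

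Per kilobase of exon (union of the exons in GENCODE M21), the 6 genes fell into an order in which Tdg overlapped Tet3 and Tet2. No other ranges overlapped. Idh2 was the highest, with 3424 to 4154 normalized counts per kilobase over the 4 libraries, followed by Idh1 with 1164 to 1936. Tdg had 160 to 549 and Tet3 303 to 395, and these neighbours overlapped. Tet2 had 111 to 161 and Tet1 52.7 to 99.9. The lowest Tdg value, 160.12 in cKO replicate 2, was just below the highest Tet2 value, 160.54 in cKO replicate 1. In all 4 libraries the level of Tet3 per kilobase was 2.39 to 3.37 times that of Tet2, and that of Tet2 was 1.61 to 2.34 times that of Tet1. Tet3 was thus the most abundant Tet transcript in both groups. With the length of the longest protein-coding transcript in place of all exons the order of the 6 means was the same, but the level of Tet2 was 2.75 to 4.0 times that of Tet1, and that of Tet3 1.99 to 2.81 times that of Tet2. The overlap of Tdg with Tet2 was then wider, at 246 in cKO replicate 2 for Tdg and 295 in cKO replicate 1 for Tet2. The share of Tet3 in the 3 Tet genes was 59.3% to 68.7%, against 59.5% to 69.5% with all exons.

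The genes whose log2 values, centred on their mean, lay nearest to each member over the 4 libraries were looked up among 10538 autosomal genes. Such likeness over 4 libraries is common, as 1107 genes lay within 0.2 log2 units of Idh2, 303 of Tet3, 298 of Idh1, 215 of Tet2 and 62 of Tet1. Nearest to Tet3 were Ccdc82 (distance 0.0166), Rfxank (0.0253) and Mier3 (0.0383). Nearest to Tet1 were Klhl24 (0.0511), Il18rap, a subunit of the interleukin 18 receptor (0.0666), and Aff3 (0.0697). Nearest to Tet2 were Med23, a Mediator subunit (0.0315), Dync1h1, the dynein heavy chain (0.0363), and Ankrd11 (0.0463). Idh1 lay near Kctd20 (0.0246), Aldh1b1 (0.0265) and Fcsk (0.0318), and Idh2 near Atic (0.0181), Lman2 (0.0227) and Lypla1 (0.0237). Tdg had no gene within 0.2, and its nearest were Mn1 (0.263), Lrig1 (0.339) and Acacb (0.353). Among the 6 genes themselves Idh1 and Idh2 were the closest pair (0.335), and Tdg lay at least 1.06 from each of the others.

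The promoters of the 6 genes, 300-base windows from RefSeq (GRCm38.p6), all held more CpG sites than the median of 7 over 32851 promoters. CpG is the dinucleotide that carries most methylation in mammals, and it reads the same on both strands. Tet2 had 57 in its window, and 0.152% of all promoters held as many or more. The others had from 17 (Tet1) to 26 (Tdg), counts that 31.4% to 16.9% of promoters reached. The windows of Tet1, Tet2 and Tet3 lie inside these genes as annotated in GENCODE M21, and their annotated 5′ ends were not counted. Idh1 had a window at its annotated 5′ end and another inside the gene, each with 23 sites. Methylation of these windows was not analysed here.

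Other genes of the pathway were taken as 4 lists, none of whose members passed the test over all genes. Over all genes tested the median log2 fold change was 0.01, with 8424 above 0 and 8174 below. TET partner proteins had 14 of 18 genes tested, 0 called, 10 above 0 and 4 below, and the median was 0.11, which turned to -0.02 without control replicate 2 and to -0.05 without cKO replicate 1. Of these 14, 1 had both libraries labelled cKO above both controls and 0 below, against 19.2% and 19.5% of all genes, and 4 listed genes (Cxxc4, Wt1, Prdm14 and Dppa3) are not analysed here. Dcaf1, an adaptor of the ubiquitin ligase that modifies TET proteins, had 2133 and 2300 normalized counts in the controls and 3440 and 2422 in the libraries labelled cKO (log2 fold change 0.38, SE 0.22). Sin3a, a corepressor scaffold that binds TET1, had 0.31 (SE 0.23), and Slc23a1, a vitamin C transporter, -0.70 (SE 0.66) at 23.3 to 72.0 normalized counts. Ogt, the glycosyltransferase that binds TET proteins, had 0.17 (SE 0.25).

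The base excision and oxidised methylcytosine reader list had 19 of 20 genes tested, 0 called, 7 above 0 and 12 below, and the median was -0.15. Of these 19, 3 had both libraries labelled cKO above both controls and 6 below, against 19.2% and 19.5% of all genes. Its member with the smallest p was Gadd45a, a stress-induced gene linked to demethylation, with 665 and 1511 normalized counts in the controls and 491 and 441 in the libraries labelled cKO. Its log2 fold change was -1.10 (SE 0.38) and its adjusted p 0.76 (limma with Benjamini-Hochberg), so it did not pass. Beside it stand the 10 immediate early genes, 9 of which had both libraries labelled cKO below both controls, against 19.5% of all genes; their part in the Gadd45a value was not tested. Xrcc1, the scaffold of base excision repair, had -0.35 (SE 0.21) and Gadd45b -0.59 (SE 0.36). Mbd4, the other glycosylase for mismatched thymine at CpG, had 0.33 (SE 0.25).

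Of the list of 2-oxoglutarate supply and removal all 26 genes were tested, 0 were called, 11 were above 0 and 15 below, and the median was -0.07 (range -0.42 to 0.28). Of the 26, 1 had both libraries labelled cKO above both controls and 8 below, against 19.2% and 19.5% of all genes. For 25 of the 26 the 95% interval lay within 2-fold, against 48.6% of all genes. It did so for 12 of 14 TET partner proteins, 14 of 19 base excision and reader genes and 23 of 29 other dioxygenases. Bcat2, a mitochondrial transaminase of branched-chain amino acids that uses 2-oxoglutarate, had 3314 and 4399 normalized counts in the controls and 2650 and 3088 in the libraries labelled cKO (log2 fold change -0.42, SE 0.21). Sdha, a subunit of succinate dehydrogenase, had 0.28 (SE 0.19), and Dld, a subunit of the 2-oxoglutarate dehydrogenase complex, -0.26 (SE 0.18).

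**Figure D5:**
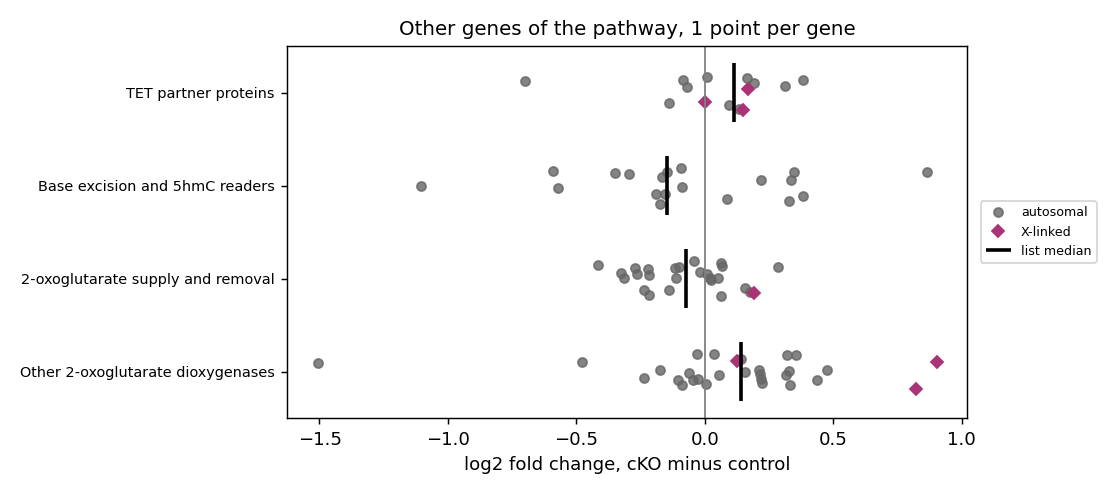
Log2 fold changes, cKO minus control (horizontal axis), of the genes of 4 pathway lists (vertical axis, points spread for visibility); diamonds are X-linked genes and vertical bars are list medians, from -0.15 to 0.14. The 2 diamonds at 0.82 and 0.90 are Kdm5c and Kdm6a.

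Other dioxygenases that use 2-oxoglutarate had 29 of 29 genes tested, 0 called, 19 above 0 and 10 below, and the median was 0.14. Of the 29, 8 had both libraries labelled cKO above both controls and 2 below, against 19.2% and 19.5% of all genes. The 2 with the smallest p are X-linked histone demethylase genes that escape X inactivation. Kdm6a had 1715 and 1791 normalized counts in the controls and 3715 and 2888 in the libraries labelled cKO. The log2 fold change of Kdm6a was 0.90 with an SE of 0.20, and its adjusted p was 0.66 by limma and Benjamini-Hochberg. Kdm5c had 4070 and 2763 in the controls and 6496 and 5410 in the libraries labelled cKO (0.82, SE 0.24). Xist and the Y genes separate the libraries in the same way. The autosomal Kdm5b, a demethylase of histone H3 lysine 4, had 2098 and 2337, and 3397 and 2786 (0.47, SE 0.20), with both libraries labelled cKO above both controls.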

How the data were processed

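The labels give 4 libraries of 4 mice, and the members and lists were chosen with earlier results of these data known. The table the authors deposited holds a signal, the reads of each gene scaled by the library's size factor, per the file headers. The submitters' processing notes name Trim Galore 0.6.7, SAMtools, STAR 2.7.9a, DESeq2, featureCounts and build mm39, without settings, annotation or strand. Columns named wild type were taken as the control samples by number. Divided by what 1 read is worth in its library, 100% of values came out whole within 0.1 read, so reads were recovered.

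Groups were compared on log2(normalized count + 1) with limma 3.58.1 in R 4.3.3, whose empirical Bayes step used a trend. Genes needed a mean of 10 or more (16598 genes), and p-values were two-sided and adjusted by Benjamini-Hochberg at a threshold of 0.05. Fold changes are on that scale, which understates those of low genes. The series' text gives 2 mice per genotype, and p-values rest on the spread between these samples. In limma the variance of each gene is drawn toward the trend over all genes, with 2 residual and 5.48 prior degrees of freedom. Its SEs and intervals rest on that variance too. The steps were tested on simulated data. edgeR 4.0.16 (12 genes called) and DESeq2 1.42.0 used the recovered reads. Other alternatives were pseudocounts, filters, TMM, quantile normalization, variance models, X and Y genes left out, the replicate number as a block, and each library left out. Ratios had exact permutation tests. Named genes were all 6 members, the 3 members of each list with the smallest p, and the 3 genes nearest to each member in centred log2 values (mean of at least 100; predicted, X, Y and receptor segment genes left out). Ogt, Mbd4, Cd3e, Kit, Cd34, Tdg-ps2 and B230319C09Rik were named after their values were seen. So were the marker genes Gata2, Nkg7, Pecam1, Emcn, Mpo, Elane, Prtn3, Ltf and Camp. The sum of Tdg with its copy and the longest transcript as gene length were chosen after seeing the data. Chromosomes and lengths came from GENCODE M21 (GRCm38), not the build of the reads, and coordinates are left out. Sequences were aligned with Biopython 1.88.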

Additional observations from a re-analysis of the deposited data

How the results depend on the processing

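No member was called under any alternative run, 16 for each gene and 17 for Tdg, and Tet1 alone kept its direction in all of them. The lowest adjusted p of a member was 0.26, for Tet1 and for Idh1. With quantile normalization Tet3 had 0.02, and with DESeq2 Idh1 had -0.01, both on the other side of 0 from the values reported. Over fits that each left out 1 library, log2 fold changes spanned 0.34 to 0.87 for Tet1, -0.12 to 0.42 for Tet2 and -0.21 to 0.17 for Tet3. They spanned -1.30 to 0.48 for Tdg, -0.33 to 0.40 for Idh1 and -0.19 to 0.09 for Idh2. The groups of Tet1 did not overlap, so its direction could not turn in these fits. The log2 differences of ratios ran from -0.06 to 0.40 for Tet2 to Tet3 and from -0.15 to 0.31 for Idh1 to Idh2. List medians ran from -0.05 to 0.20 for TET partner proteins, -0.18 to -0.08 for base excision and readers, -0.17 to 0.02 for 2-oxoglutarate supply and removal and 0.07 to 0.24 for the other dioxygenases. Over all genes 5 were called higher and 7 lower. The number called higher was 2 with a mean of at least 50, with quantile normalization and without a trend. It was 1, with 1 lower, when X and Y genes were left out. DESeq2 called 71 higher and 36 lower. Leaving out a library gave 4 to 231 higher and 8 to 161 lower, the most without control replicate 1 (231 and 161). There were 25 higher without control replicate 2, 26 lower without cKO replicate 1 and 14 lower without cKO replicate 2. The cause was not tested. With the replicate number as a block 3 were called higher and 5 lower. The labels give samples with the same number nothing in common but the number. Their deviations from the group means had a correlation of -0.07 over genes, which with 2 mice per group cannot decide on a pairing. The block changed no call of a member. Each member had at least 749 reads in each library. A library that is the only one of its group is assumed to vary like the others.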
